A study of Oryza sativa with 8 samples.

Results

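The regions described here are genomic sites at which peaks were called in ChIP replicates 1, 3 and 4 of ABERRANT PANICLE ORGANIZATION2 (APO2) and none in replicate 2. They number 369 of the 4076 regions that the peak lists of the 4 replicates give when overlapping peaks are merged, and 369 of 3861 outside 6 short, densely peaked chromosome blocks that were left out with 39 further regions of the same kind. The regions were chosen by which lists hold a called peak, so their presence in 3 lists and absence from the list of replicate 2 is the choice itself and not a result. The strength of their peaks decides in part whether a peak is called, so it is described below without a test.

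APO2 belongs to the LEAFY family, transcription factors found in plants alone that bind DNA as dimers through a helix-turn-helix domain. In Arabidopsis, LEAFY turns on the floral organ identity genes and works together with the F-box protein UFO. In rice, APO2 (also called RFL) and APO1, the counterpart of UFO, keep the young panicle producing branches before its meristems turn into flowers. A catalogue of candidate binding sites depends on which sites are found again in repeated immunoprecipitations, and the sites missing from 1 list are the ones on which that catalogue turns.

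The samples were young inflorescence meristems of rice, with 4 ChIP and 4 input samples, and only the 4 ChIP samples had files here. Chromatin was precipitated with an antibody against GFP, numbered ab290, ab291, ab292 and ab293 in replicates 1 to 4 by the labels, and whether these consecutive numbers stand for different antibodies was not settled from the labels. The sources used here give neither the genotype of the plants nor a tagged transgene, its promoter or line, and no precipitation from untagged tissue is among the samples, so a shared peak is not thereby shown to be APO2 binding. Nor do they tell whether different plants were used for each replicate, so the spread between lists may be technical. Values are those of the peak lists. Positions follow IRGSP-1.0 with the first base as 1, and the genes and the sequence there were not analysed here.

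The lists differed in length, with 1337 peaks in replicate 1, 626 in replicate 2, 3308 in replicate 3 and 2081 in replicate 4. The list of replicate 2 was the shortest and its peaks held the fewest fragments, with a median of 13 at the summit against 20, 22 and 17 in replicates 1, 3 and 4. The median background of its peaks was also the lowest, at 0.895 fragments against 2.42, 3.75 and 2.01. By fold enrichment, the ratio of summit to background described below, its called peaks were the strongest. Their median fold was 6.47, against 5.76, 4.997 and 5.46 in replicates 1, 3 and 4. The lists do not tell how many reads a library had, and the part of depth in the missing peaks was not tested. Outside the blocks, 745 regions held peaks of replicates 1, 3 and 4, and 50.5% of these also held a replicate 2 peak. The other 369 are the regions of interest. No other combination of exactly 3 replicates came near this number, with 27 regions for replicates 2, 3 and 4, 8 for replicates 1, 2 and 3 and 7 for replicates 1, 2 and 4. The number changed with the part of the lists used: with only the 626 strongest peaks taken from every list, 56 regions were left and 81.0% of the regions of replicates 1, 3 and 4 held a replicate 2 peak.

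Peaks at the 369 regions were of moderate strength in each of the lists that held them. In replicate 1 the fold enrichment, the caller's ratio of fragments at the summit to the local background with 1 added to each, had a median of 5.56 and ran from 1.88 to 16.8. In replicate 3 it had a median of 6.54 and ran from 2.41 to 28.0. In replicate 4 it had a median of 6.44 and ran from 3.13 to 20.3. The 3 medians averaged 6.18 ± 0.536 (SD, n = 3 lists), against 10.9 ± 1.24 at the 376 regions that all 4 replicates shared. The distributions overlapped widely, and the median in the regions without replicate 2 was 0.567 ± 0.0364 of that in the shared regions (SD, n = 3 lists). The 433 regions found in replicates 3 and 4 alone lay lower, with median folds of 5.01 in replicate 3 and 4.96 in replicate 4.

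Fragments at the summit were fewer, while the background beneath them was close to that of the shared regions. In replicate 1 the median summit held 18 fragments at the 369 regions and 34 at the shared regions. In replicate 3 these numbers were 34 and 67, and in replicate 4 they were 17 and 31. The ratio of the medians was 0.528 ± 0.0205 (SD, n = 3 lists). The backgrounds had medians of 2.34, 4.68 and 1.78 fragments in replicates 1, 3 and 4, against 2.44, 4.77 and 1.83 at the shared regions, a ratio of 0.970 ± 0.0122. Peaks were also narrower, with median widths of 342, 492 and 478 bp against 558.5, 700.0 and 742.5 bp. The merged regions had a median length of 608 bp (interquartile range 474 to 798 bp), against 903 bp for the shared ones, and together covered 262 kb.

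**Figure D1:**
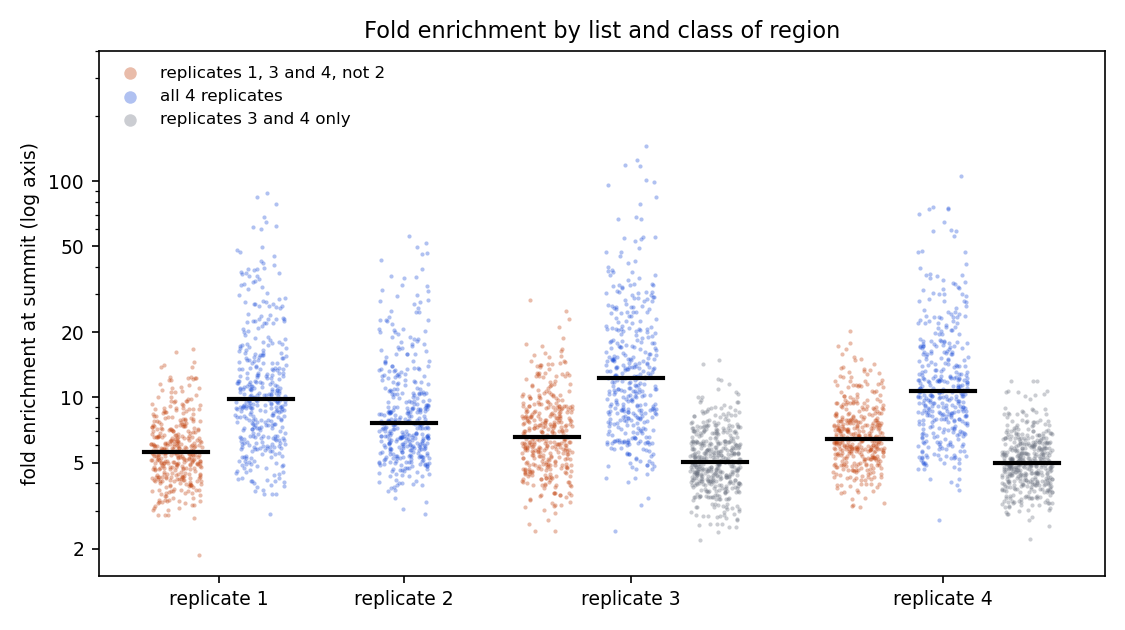
Fold enrichment at the summit (vertical, log axis) of each region's strongest peak in each list, for the 369 regions of replicates 1, 3 and 4 without replicate 2 (orange), the 376 regions of all 4 replicates (blue) and the 433 regions of replicates 3 and 4 only (grey). Black bars are medians, 5.56, 6.54 and 6.44 for the orange points, which overlap the blue points over most of their range and do not reach the highest of them.

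The 369 regions ranked differently in the 3 lists. In replicate 1, 46 of them (12.5%) stood among the strongest peaks by fold, those in the top 25.1% of the list, and 85 (23.0%) in the equally large group of weakest peaks. In replicate 3, 178 (48.2%) stood in the top 25.0% of the list, and 34 (9.21%) among the weakest. In replicate 4, 112 (30.4%) stood in the top 25.0%, and 29 (7.86%) among the weakest. The lists differ in length, so the same region can rank high in the long list of replicate 3 and in the middle of the list of replicate 1, and these shares show no change between lists. Of the shared regions, 61.7, 83.0 and 76.3% stood in the same top groups of replicates 1, 3 and 4.

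The caller's threshold lay near a −log10 q of 1.30 in every list. A −log10 q below 2 was found at 9 regions in replicate 1, at 3 in replicate 3 and at 1 in replicate 4, and at 13 regions in any of them. A −log10 q of 10 or more was reached at 116 regions in replicate 1, 276 in replicate 3 and 172 in replicate 4. In 84 regions (22.8%) all of these lists reached it. The median −log10 q was 7.53, 17.0 and 9.27 in replicates 1, 3 and 4, against 23.4, 50.4 and 24.6 at the shared regions. The matching counts over all peaks were not computed. A region called in 3 lists is already selected against peaks near the threshold, so these counts are a description only.

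Recovery by replicate 2 followed the strength of a region in the other lists. The 745 regions were ranked by the mean percentile of their fold within lists 1, 3 and 4 and divided into 4 classes of equal size. Of the weakest class, 14.4% held a replicate 2 peak (27 of 187, 95% Wilson interval 10.1 to 20.2%). The share was 34.4% in the next class (28.0 to 41.5%), 63.4% in the third (56.3 to 70.0%) and 89.8% in the strongest (84.6 to 93.4%). The regions without replicate 2 accordingly numbered 160, 122, 68 and 19 from the weakest class to the strongest. Counting by fragments gave the same picture: of the regions with 10 fragments or fewer at the summit of replicate 1, 18.6% held a replicate 2 peak (11 of 59), and of those with 61 or more, 98.9% did (89 of 90). These shares describe the contrast that chose the regions and carry no test.

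**Figure D2:**
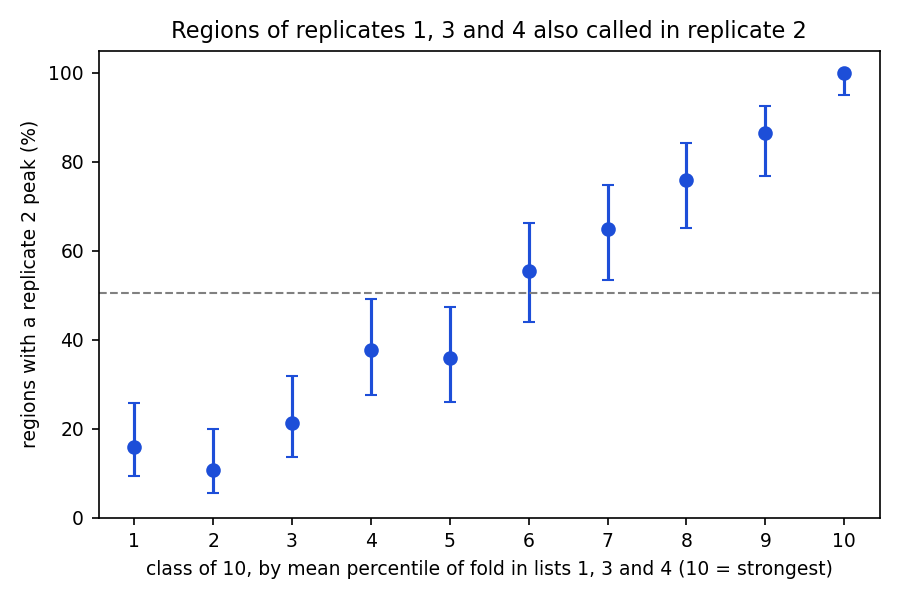
Share of the regions of replicates 1, 3 and 4 that also held a replicate 2 peak (vertical, percent) in 10 classes of strength, the mean percentile of fold in lists 1, 3 and 4 (horizontal, 10 strongest). Points are shares of 74 or 75 regions with 95% Wilson intervals and the dashed line is the 50.5% over all regions; the share ran from 10.8% in class 2 to 100% in class 10.

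At the shared regions the summit of replicate 2 held a median of 0.414 times the fragments of replicate 1 (interquartile range 0.333 to 0.530), 0.208 times those of replicate 3 (0.163 to 0.264) and 0.429 times those of replicate 4 (0.340 to 0.538). Its background was lower in like measure, at 0.374, 0.186 and 0.429 times those of replicates 1, 3 and 4. Multiplied by these ratios of fragments, the summits of the 369 regions come to medians of 7.46, 7.07 and 7.29 fragments on the scale of replicate 2. Of the replicate 2 peaks whose background lay between 0.520 and 1.16 fragments, the interquartile range at the shared regions, the lowest had 5 fragments, the lowest 10% had 7 or fewer and the median was 12. The scaled medians thus lie above that lowest 10% and below the lower quartile of these replicate 2 peaks, 9 fragments. Whether this bears on the missing peaks was not tested. They are a rescaling and not a measurement, since the coverage of replicate 2 at these regions was not analysed here, and the ratios come from regions chosen for having a replicate 2 peak.

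On the same scale, 37 of the 369 regions from replicate 1, 45 from replicate 3 and 52 from replicate 4 come to 13 fragments or more, the median of the list of replicate 2. The strongest of all lay on chromosome 11 from 696977 to 697799. Its folds were 16.8, 24.9 and 14.3 in replicates 1, 3 and 4, with 53, 140 and 41 fragments over backgrounds of 2.22, 4.65 and 1.93. The exact 95% Poisson intervals of these counts were 39.7 to 69.3, 118 to 165 and 29.4 to 55.6. A peak is called for exceeding its background by such a count, so the intervals describe the counts and are no separate test. The 3 summits lay within 77 bp, and the nearest replicate 2 peak was 478 kb away. All 80 regions that ranked above it held a replicate 2 peak.

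The next regions in rank also had high folds in each of the 3 lists. Rank 2 went to positions 25134222 to 25134982 of chromosome 4, where the folds were 16.3, 23.1 and 12.4 and the summits held 34, 79 and 19 fragments. Rank 3 (chromosome 7, 24636191 to 24636735) had folds of 12.1, 21.1 and 17.8 and lay 1081 kb from any replicate 2 peak. Rank 4 (chromosome 7, 23008405 to 23010389) had folds of 12.3, 17.2 and 17.2 and a shared region 0.29 kb away. These 3 sites had their lowest fold in replicate 4, 1 and 1 in turn. At rank 5 (chromosome 11, 6127459 to 6127905) the folds were 11.6, 14.3 and 15.03, and its summits of 34, 73 and 32 fragments lay within 55 bp. Replicate 3 held the most fragments at every one of these 5 sites, and its background was the highest at each.

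Further down, the lists ordered the sites differently. On chromosome 1 from 37559824 to 37560669 (rank 7) replicate 1 gave the highest fold, 13.8, against 11.1 and 11.9. On chromosome 5 from 6447248 to 6449715 (rank 11) replicate 3 gave 28.0, the highest fold of any of the 369 regions, against 9.87 and 11.3 in replicates 1 and 4. That site owed its fold to a thin background of 0.854 fragments beneath 51, and replicate 1 had 12 fragments there over 0.317. On chromosome 6 from 643182 to 643799 (rank 9) the summits of 38, 66 and 33 fragments lay within 12 bp of each other. On chromosome 12 from 11288928 to 11289443 (rank 15) the folds were 12.5, 14.8 and 9.13, and a shared region lay 0.84 kb away. The other 6 of the 15 strongest had folds between 8.69 and 15.5 in every list. By chromosome and first base they were 1 (5938946), 4 (33079181 and 30172825), 5 (7754015 and 12976619) and 8 (11742986).

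**Figure D3:**
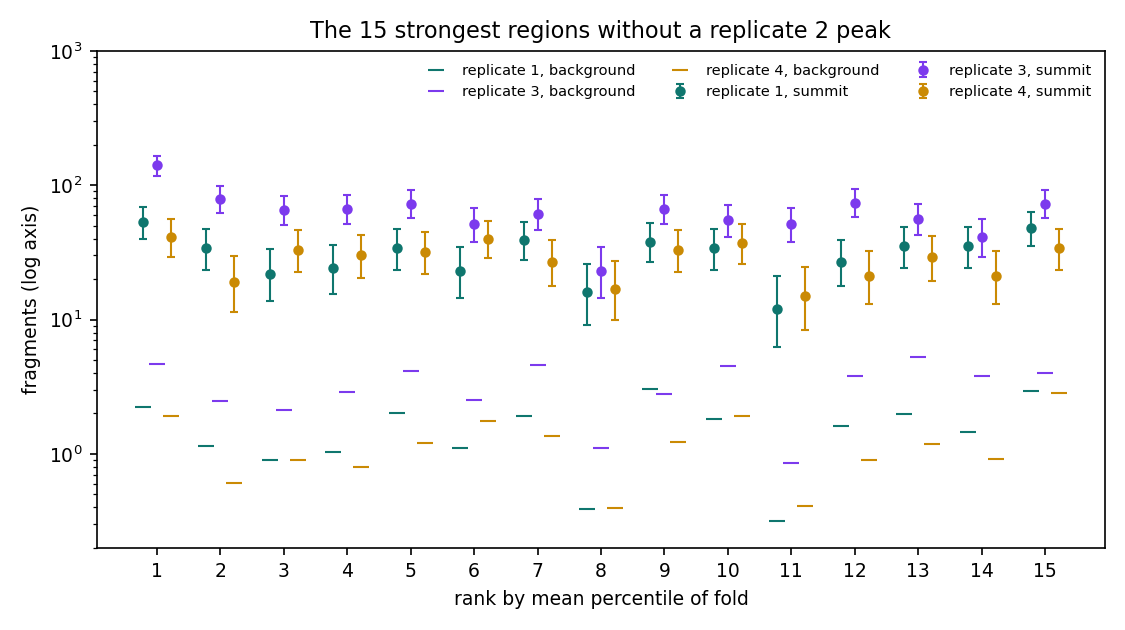
Fragments at the summit (points, with exact 95% Poisson intervals) and expected background (dashes) in replicates 1, 3 and 4 for the 15 strongest of the 369 regions, ranked by mean percentile of fold (horizontal); the vertical axis is logarithmic. Summits run from 12 fragments over 0.317 (rank 11, replicate 1) to 140 over 4.65 (rank 1, replicate 3). Every interval lies above its background, which the calling of a peak largely fixes in advance.

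The weakest sites had folds near the lower end in every list. The lowest mean percentile was on chromosome 4 from 4965009 to 4965482, where the folds were 3.53, 3.17 and 3.65, with 14, 20 and 8 fragments over backgrounds of 3.25, 5.62 and 1.47. The Poisson interval of the 8 fragments in replicate 4 ran from 3.45 to 15.8. That it lay above the background is largely fixed in advance by the calling of the peak and is no separate test. The others among the lowest 5 had folds between 2.77 and 4.28. By chromosome and first base they were 3 (28631136), 8 (22841022) and 1 (30862865 and 37953655).

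Within a region the folds of the 3 lists were compared by the ratio of the highest to the lowest. Most of these regions have moderate folds in every list, which limits this ratio, and no ratio at other regions is given here. The highest of the 3 folds was a median of 1.54 times the lowest (interquartile range 1.32 to 1.86), within 1.5 times in 172 regions and more than 2 times in 71. Replicate 3 had the highest fold in 161 regions, replicate 4 in 150 and replicate 1 in 58. Across the 369 regions the folds of different lists were moderately related, with Spearman's rho of 0.492 between replicates 1 and 3, 0.482 between 1 and 4 and 0.407 between 3 and 4. At the shared regions, which span a wider range of folds, rho was 0.791, 0.777 and 0.736. The backgrounds were more closely related than the folds, with rho from 0.881 to 0.889. Regions share their local sequence and coverage between lists, so these values describe the lists and carry no p-value.

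The 5 regions with the widest range of percentile between the lists all had their highest fold in replicate 3. On chromosome 8 from 22848617 to 22849330 the folds were 3.37, 9.04 and 4.30 in replicates 1, 3 and 4, with 10, 39 and 9 fragments. On chromosome 4 from 26996602 to 26997519 they were 3.51, 9.35 and 3.80, and on chromosome 12 from 26010368 to 26010827 they were 3.44, 8.80 and 3.86. Replicates 1 and 4 lay close together at these sites. Replicate 4 stood between the others on chromosome 12 from 5629009 to 5629675, with folds of 2.86, 7.56 and 6.13. The fifth, on chromosome 12 from 24462085 to 24462569, rested on 7 and 6 fragments in replicates 1 and 4 against 30 in replicate 3. Ranked by fold instead, the widest ratio of highest to lowest, 3.21, had replicate 4 high. It lay on chromosome 3 from 27710651 to 27711126, with folds of 4.19, 3.93 and 12.6 in replicates 1, 3 and 4.

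The position of the summit was not used to choose the regions beyond the overlap of the peaks. Where each of the 3 lists had a single peak, in 357 regions, the median span of the summits was 76 bp, with values from 1 to 1008 bp. In 226 (63.3%, 95% Wilson interval 58.2 to 68.1%) the summits lay within 100 bp, against 70.5% over all regions of replicates 1, 3 and 4 and 77.8% (73.1 to 81.8%) of the 351 such shared regions, whose median span was 52 bp. The median distance of a list's summit from the mean of the other two was 43, 37.5 and 45 bp in replicates 1, 3 and 4, against 25, 24 and 32 bp at the shared regions. It was larger in 3 of 3 lists, and the exact two-sided sign test over lists gave p = 0.25, the smallest value that 3 lists allow. The 3 distances are computed from the same summits and are not independent.

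At like strength the gap was small. In the weakest class the median span was 103 bp in 153 regions without replicate 2 and 99 bp in 24 shared regions. In the next class it was 75.5 bp against 74 bp, and in the third 59 bp against 61 bp. In the strongest class it was 55 bp in 19 regions against 43 bp in 157 shared regions, which reach far higher folds. With lists of equal length the direction turned: the summits of the regions without replicate 2 lay farther apart in 1 of 3 lists, and their median span was 50 bp.

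**Figure D4:**
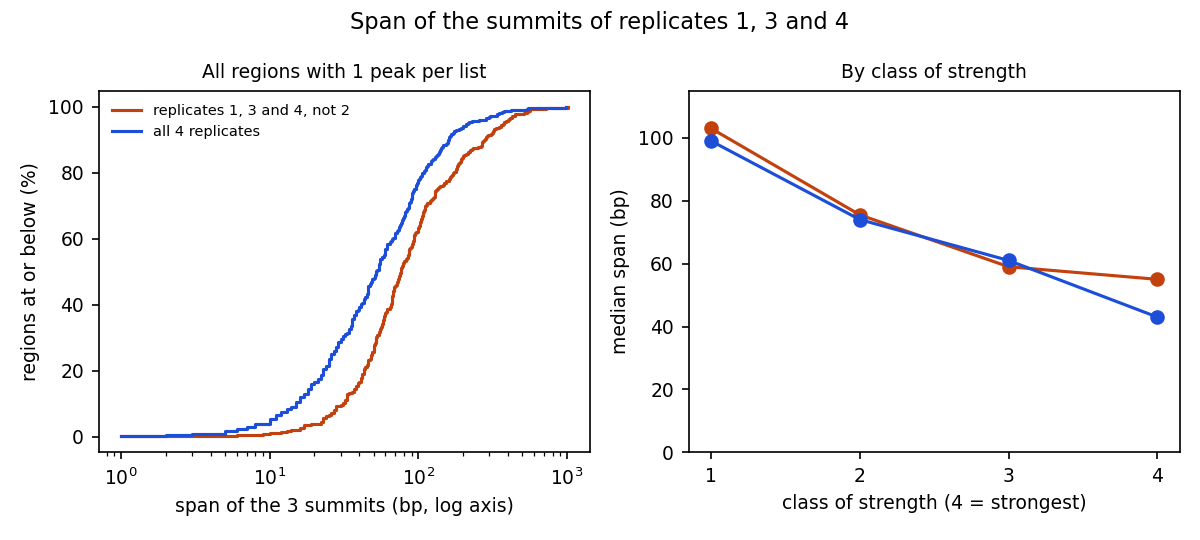
Left, share of regions (percent) whose summits in replicates 1, 3 and 4 span at most the distance on the log axis (bp), for 357 regions without replicate 2 (orange) and 351 shared regions (blue), all with 1 peak per list. Right, median span by class of strength; the curves lie apart on the left, with medians of 76 and 52 bp, and close together on the right in classes 1 to 3.

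A few of the regions lay beside a replicate 2 peak. The median distance to the nearest was 163 kb. Within 1 kb, 8 of the 369 had one, against 45 of all 3365 regions outside the blocks without a replicate 2 peak (1.34%). Within 10 kb, 43 (11.7%) had one, against 8.62% of those 3365, which include the 369. The closest, on chromosome 3 from 28631136 to 28631555, ended up outside the overlap by 19 bp: replicate 2 had a private peak there from 28630871 to 28631116 with 8 fragments and a fold of 5.03. It is the case that the rule of 1 bp overlap decided most narrowly. The next, on chromosome 3 from 10004857 to 10005342, was 373 bp from a replicate 2 peak of 3.68-fold that replicates 3 and 4 shared. On chromosome 6, the regions from 23584866 to 23587270 and from 23572085 to 23574417 lay 601 and 749 bp from replicate 2 peaks inside regions of all 4 replicates, and on chromosome 7 the region from 12661641 to 12662773 lay 661 bp from a peak of replicates 2, 3 and 4. On the other side of the rule, the shared regions with the shortest overlap of replicate 2 were on chromosome 6 from 30987865 to 30988541 (148 bp), on chromosome 10 from 19549892 to 19550519 (154 bp), on chromosome 1 from 4223060 to 4224966 (169 bp), on chromosome 2 from 3653511 to 3653992 (178 bp) and on chromosome 3 from 5270382 to 5271136 (183 bp). Replicate 2 had 8, 6, 4, 8 and 4 fragments there, with folds of 3.94, 4.72, 4.32, 4.11 and 3.82.

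Some of the regions flanked stronger or shared sites. Of the 369, 40 (10.8%, 95% Wilson interval 8.06 to 14.4%) lay within 10 kb of a shared region, against 7.52% of all regions outside the blocks that were not shared by all 4. The share was 12.9% (10.1 to 16.4%) for the regions of replicates 3 and 4 only and 7.70% (6.54 to 9.04%) for the private regions of replicate 3. It was 5.61% (2.60 to 11.7%) for replicates 1 and 3 only and 3.13% (0.861 to 10.7%) for replicates 1 and 4 only. For the private regions of replicate 4 it was 3.32% (2.02 to 5.40%), and for the 186 of replicate 1 it was 1.08% (0.295 to 3.84%). Neighbouring regions are not independent and all sets come from the same 4 lists. The intervals therefore do not test the sets against each other. Of the 369, 44 (11.9%) lay within 10 kb of another of them, in 20 groups of up to 4 regions, and 74 had a neighbour of either kind or of both. The matching shares within other sets of regions were not computed, so these counts do not set the 369 apart. The largest group, on chromosome 8 from 22835334 to 22849330, held 4 regions and had no shared region within 10 kb.

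The group with the strongest member lay on chromosome 7 from 23000298 to 23013452 and held 3 regions around a shared one. The shared region, from 23010680 to 23011833, had folds of 6.80, 5.30, 10.9 and 6.50 in replicates 1 to 4. The region just before it, from 23008405 to 23010389, was the stronger in each of replicates 1, 3 and 4 by fold, and yet the only replicate 2 peak of the group fell in the weaker shared region. By fragments the order was less clear, with 24, 66 and 30 in that neighbour against 29, 73 and 23 in the shared region, which held 10 in replicate 2. The region after it, from 23012513 to 23013452, had folds of 4.42, 9.48 and 7.58, and the one farthest from it, from 23000298 to 23000842, had 10.6, 5.59 and 11.2.

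**Figure D5:**
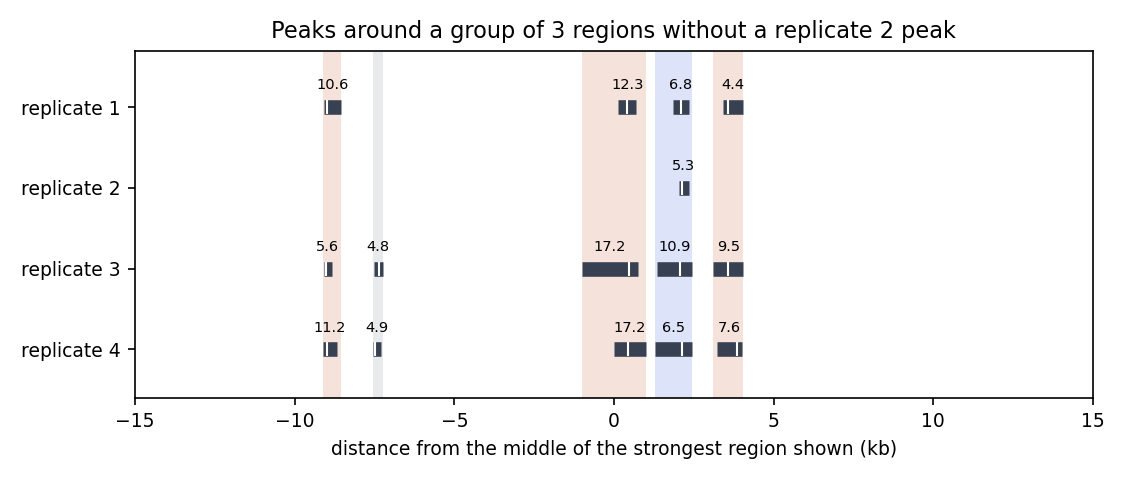
Peaks of each replicate (dark bars, white ticks at summits, numbers give the fold) along 30 kb of chromosome 7, as distance in kb from the middle of the region at rank 4. Orange bands are regions without replicate 2, the blue band is the region of all 4 replicates and the grey band a region of replicates 3 and 4; replicate 2 has a single peak, of 5.3-fold, in the blue band.

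Long regions were the exception. The longest, on chromosome 9 from 4705145 to 4711121, joined 2, 1 and 3 peaks of replicates 1, 3 and 4, with 82, 181 and 92 fragments over high backgrounds of 16.5, 28.3 and 14.4. The next, on chromosome 7 from 14239289 to 14244643, joined 3, 1 and 3 peaks, with 55, 175 and 86 fragments over 9.89, 27.7 and 16.9. At both the fold stayed between 4.75 and 6.22, and the summits of the 3 lists were up to 4274 bp apart in the first, so the merged region spans more than 1 summit position. The region of the highest fold, at rank 11 above, was also the third in length, at 2468 bp.

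The 369 regions were found on all 12 chromosomes. Chromosomes 1 and 3 held 62 each and chromosome 11 held 10, from 0.346 per Mb on chromosome 11 to 1.71 on chromosome 3, with the last peak on it taken as the length of a chromosome. The shared regions ran from 0.450 to 1.61 per Mb, with the lowest value also on chromosome 11. The share of the regions of replicates 1, 3 and 4 that lacked replicate 2 was 49.5% over all chromosomes, and ran from 41.4% on chromosomes 10 and 12 to 60.5% on chromosome 9 (44.7 to 74.4%). The 95% Wilson interval of each of the 12 chromosomes held the share over all. The intervals were wide, such as 25.6 to 63.2% on chromosome 11, so this does not show that the chromosomes are alike. These shares describe the contrast that chose the regions and carry no test.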

How the data were processed

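Per the submitters' processing notes, reads were handled with bcl2fastq 2.2, Bowtie 0.12.8, MACS2 1.4.2 and deepTools 3.5.4 on the IRGSP-1.0 build; peak names in the lists of replicates 1, 2 and 4 name Bowtie2 instead, and those of replicate 3 name no aligner. The sources used here name neither the control nor the treatment of duplicates. The authors called peaks on each replicate separately. The deposited fold is the ratio of summit pileup to local background, each with 1 added. The deposited −log10 p and −log10 q values are the caller's, and the deposited score, which equals the −log10 q times 10 without its decimals in every row, was not used further.

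Peaks sharing at least 1 bp were merged, and bedtools 2.31.1 gave the same 369 regions. Where a list had several peaks in a region, the one with the highest fold was used. Percentiles rank fold within a list. Fragments and background were recovered as the whole number and the background that give the deposited fold and, within 0.002, the deposited −log10 p, which was possible for all 7352 peaks; for 23 of them 2 solutions passed and the closer was taken. Intervals cover counting error only. The steps were tested on simulated data. Computations used scipy 1.17.1, pandas 2.3.3 and numpy 2.4.6 under Python 3.11.15; figures were drawn with matplotlib 3.10.9.

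The choice of regions and tests was made with earlier results of these data known. Named regions are the 15 highest and 5 lowest by mean percentile of fold, the 5 with the widest range of percentile, the 5 closest to a replicate 2 peak, the 3 longest, and 5 shared regions with the shortest replicate 2 overlap; groups of neighbours were named after their values were seen. Location relative to genes and the LEAFY-type motif were not analysed here, since no sequence or annotation of IRGSP-1.0 was used.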

Additional observations from a re-analysis of the deposited data

How the results depend on the processing

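There were 12 alternatives. With the strongest 626 peaks of each list, which keeps fewer and stronger regions by construction, 56 regions were left, their mean fold was 8.75, the share of regions of replicates 1, 3 and 4 with a replicate 2 peak was 81.0%, and the median summit span was 50 bp, with summits farther apart than at shared regions in 1 of 3 lists. With a −log10 q of at least 10 in every list, which also shortens the list of replicate 2, there were 200 regions, with a mean fold of 9.24, a median of 508 kb to the nearest replicate 2 peak and a share of 44.4%. With the 6 dense blocks kept, 19.4% of the regions lay within 10 kb of a shared one, and the median distance to a replicate 2 peak was 126 kb. With 1 replicate left out, the count ran from 440 to 802, highest without replicate 1 and 745 without replicate 2 (where its absence is no longer required), the mean fold from 5.62 to 7.82 and the share with a replicate 2 peak from 33.4 to 46.9%. Of the other 52 recomputed values, counts were within 1.5 times the main count, mean folds within 1 SD, shares and distances within the 95% interval of the main value, and summits farther apart than at shared regions in every list compared, except that leaving out replicate 2 gave a span of 66 bp with no shared regions to compare. With replicate 1, 3 or 4 left out, 2 lists remain, and the distance between their summits is the same for both. Each such setting therefore gives a single comparison of summits and not 1 per list. No paired analysis was possible because only the ChIP group had files here. Without read totals, and without the coverage of replicate 2 at these regions, a missing peak cannot be told apart from a site below its limit of calling.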

Other observations

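Regions that lacked another of the replicates were few. The 27 regions of replicates 2, 3 and 4 without replicate 1 had median folds of 4.94, 6.10 and 5.89 in those lists, and the summits of replicate 2 held a median of 8 fragments. The 8 regions without replicate 4 had median folds of 5.52, 5.76 and 7.005 in replicates 1, 2 and 3, and the 7 without replicate 3 had 5.41, 4.91 and 7.09 in replicates 1, 2 and 4. Outside the blocks, 51 regions were private to replicate 2, with a median fold of 4.47, none above 7.22, and a median of 5 fragments at the summit.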
